A study of Mus musculus with 4 samples.

Results

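The expression of the FGF receptors and of the genes that report and restrain ERK signalling was examined in FACS-enriched *Hmx3-Cre/tdTomato* cells of the mouse at E16 (day 16, counting the day of insemination as day 1). The 10 genes were given by name, namely the receptors *Fgfr1*, *Fgfr2* and *Fgfr3*, the ligand *Fgf15*, the Sprouty genes *Spry1*, *Spry2* and *Spry4*, the ETS factors *Etv4* and *Etv5* and the phosphatase gene *Dusp6*. All 10 were found among the 55573 Ensembl genes of the count lists, and all 10 passed the filter on low counts together with 16832 genes in all. The 4 libraries comprised 2 from *Dnmt1* wild-type embryos (WT) and 2 from embryos in which *Dnmt1* carried loxP sites (*Dnmt1 loxP2*, KO). Embryos of both genotypes carried the *Hmx3-Cre* driver and the *tdTomato* reporter on a C57BL/6J background, so that recombination was limited to the *Hmx3* lineage, and its product is an out-of-frame null allele. Cells came from 12 pooled WT and 6 pooled KO embryos. The labels give the basal telencephalon as the source and call the libraries biological replicates, while the study's methods speak of the preoptic area (POA) and of technical duplicates of pools. SDs and p-values therefore measure the spread between these libraries, which may be technical.

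Fibroblast growth factors (FGFs) bind receptor tyrosine kinases at the cell surface together with heparan sulphate chains, and the activated receptor drives the RAS-RAF-MEK-ERK kinase cascade. ERK activity induces the ETS factors ETV4 and ETV5 and a set of inhibitors, among them the Sprouty proteins, which interfere with the cascade, and DUSP6, a phosphatase that removes the activating phosphates from ERK. These induced genes are widely used as a readout of FGF signalling. In the embryonic brain FGF receptors are carried by neural progenitors and later by glia, with *Fgfr3* best known from radial glia and astrocytes.

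The libraries held between 8075102 and 9995968 counts, so that 3 counts corresponded to 0.294 to 0.372 CPM (counts-per-million, scaled by TMM), and such floors cover counting error only. The share of mitochondrial rRNA was 8.66% in WT replicate 1 and 1.51% to 2.32% in the other libraries. The spread between libraries of a genotype (edgeR's biological coefficient of variation) was 0.237 in WT and 0.103 in KO. In the fits with a library left out, the spread comes from the genotype that keeps both libraries. Calls without a KO library thus rest on the wider WT spread, and calls without a WT library on the narrower KO spread. The targeted gene *Dnmt1* had 385 and 447 CPM in WT and 283 and 281 CPM in KO (log2 fold change -0.56, edgeR adjusted p = 0.0511), a count that includes reads outside the deleted part, and it passed in 7 of 10 other fits. The driver gene *Hmx3* had 78.6 and 90.0 CPM in WT and 71.8 and 93.7 CPM in KO. All 9 markers of GABAergic and POA neurons were present in every library, and 0 of the 9 passed the test in either direction (edgeR; 0 higher and 2 lower at an unadjusted p under 0.05). *Pdgfra*, a marker of oligodendrocyte precursors, stood at 73.2 and 71.8 RPKM in WT (CPM per kilobase of merged exons), against 20.9 and 19.9 RPKM for *Gad1*, which encodes a GABA-synthesizing enzyme. *Dlx1*, a transcription factor gene of GABAergic neurons, stood higher at 130 and 118 RPKM in WT. Summed over the lists, the 9 GABAergic and POA markers reached 359 and 340 RPKM in WT and 283 and 325 RPKM in KO. Of these 9 genes, 8 had a log2 fold change below 0 and 1 above 0. The 5 precursor markers reached 218 and 243 RPKM in WT and 302.5 and 321 RPKM in KO.

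Of the 10 genes, 6 had a higher level in KO with an adjusted p under 0.05 in edgeR's test, and 0 had a lower one. The 6 were all 3 receptors, both ETS factors and *Spry2*, whereas *Spry1*, *Spry4*, *Dusp6* and *Fgf15* did not pass. Over all 16832 tested genes, 7.33% were higher and 0.57% lower by the same rule, or 7.9% in either direction. The count of 0 lower genes was the same at an unadjusted p under 0.05 and with DESeq2 and limma-voom. Over the 10 genes the median log2 fold change was 0.83, beside -0.03 over all tested genes, with 3.01 over the receptors and 0.68 over the 6 feedback genes (*Spry1*, *Spry2*, *Spry4*, *Etv4*, *Etv5* and *Dusp6*). In 8 of the 10 genes both KO libraries lay above both WT libraries, as they did in 28.3% of all tested genes, and in 0 of the 10 they lay below both, against 25.2%.

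**Figure D1:**
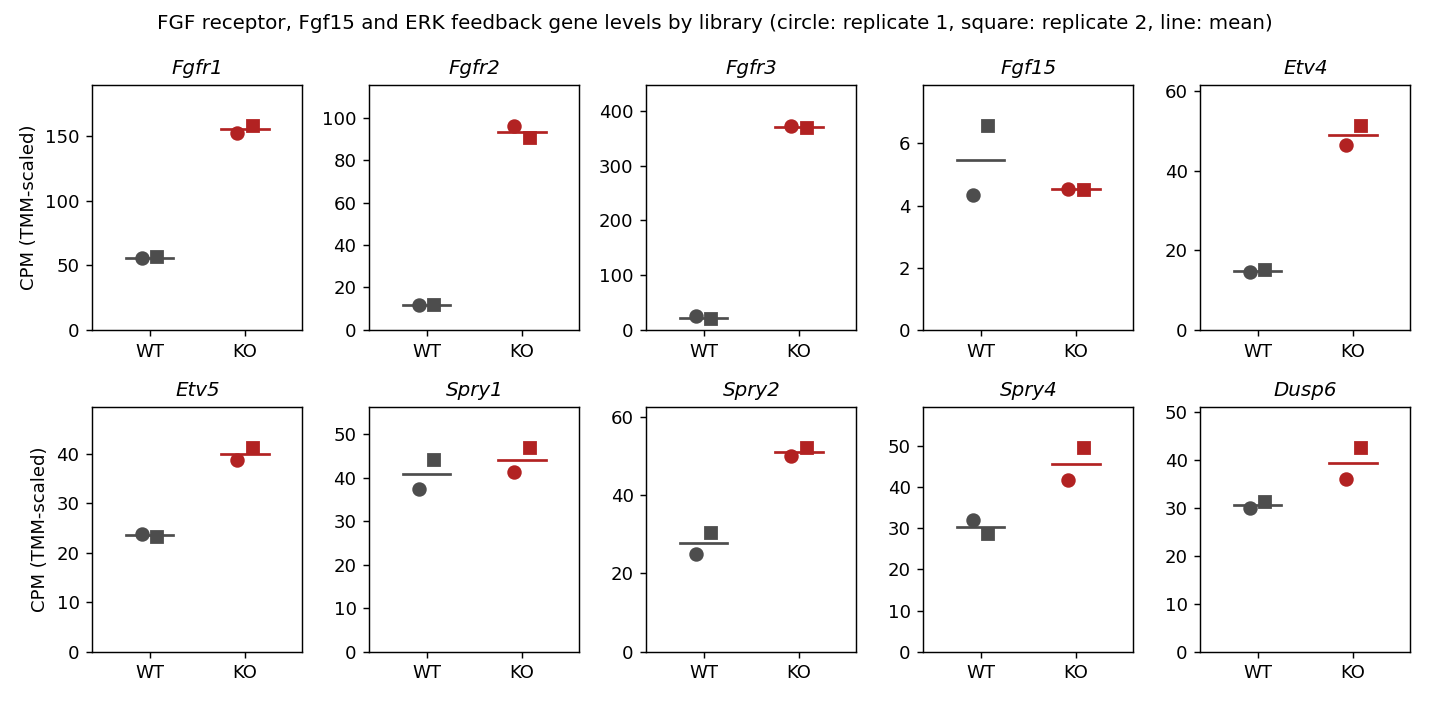
Level of each of the 10 genes in CPM (counts-per-million, TMM-scaled, linear axis from 0) in the 2 WT and 2 KO libraries, with circles for replicate 1, squares for replicate 2 and lines for the mean. *Fgfr3* goes from 25.1 and 19.6 CPM in WT to 373 and 369 CPM in KO, while the points of *Spry1* and *Fgf15* overlap between genotypes.

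*Fgfr3* (ENSMUSG00000054252, chromosome 5 of GRCm38, 33721674 to 33737068, plus strand), a receptor gene of radial glia and astrocytes, showed the largest change of the 10 genes. It had 202 and 200 counts in WT, against 3137 and 3348 in KO. These correspond to 25.1 and 19.6 CPM in WT and 373 and 369 CPM in KO. The KO libraries were close to each other and lay far above both WT libraries. The log2 fold change was 4.06 ± 0.18 (SE, edgeR adjusted p = 6.59e-06), or 16.6-fold with a 95% interval from 12.5 to 22.1. Of all tested genes, 1.74% had a larger log2 fold change. The antisense gene *G630022F23Rik* overlaps 13.9% of the exonic bases of *Fgfr3*, and it had 14 and 29 counts in WT, against 60 and 122 in KO. As the strand setting of the counting is not given in the sources used here, reads in this stretch cannot be assigned to one or the other gene.

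*Fgfr2* (ENSMUSG00000030849, chromosome 7, 130162451 to 133123350, minus strand), a receptor of neural progenitors and of the oligodendrocyte lineage, had 93 and 119 counts in WT, against 809 and 821 in KO. Its level was 11.5 and 11.7 CPM in WT and 96.2 and 90.4 CPM in KO, without overlap. The log2 fold change of *Fgfr2* was 3.01 ± 0.16 (SE, edgeR adjusted p = 1.77e-05), an 8.03-fold rise with an interval from 6.2 to 10.4. *Fgfr1* (ENSMUSG00000031565, chromosome 8, 25513654 to 25575718, plus strand), the receptor most broadly carried by neural cells, rose less. It stood at 55.4 and 56.1 CPM in WT and at 153 and 158 CPM in KO, from 446 and 573 counts to 1284 and 1436. This was a log2 fold change of 1.48 ± 0.14 (SE, edgeR adjusted p = 0.000425) and a 2.79-fold rise with an interval from 2.22 to 3.5. The 95% intervals of the 3 receptors did not overlap one another, the difference between receptors not being tested as such. The fourth receptor gene, *Fgfr4*, had between 3 and 7 counts per library and was not tested.

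Per exon length, the makeup of the receptor transcripts differed between genotypes. In WT, *Fgfr1* made up 54.3% and 58.8% of the summed RPKM of *Fgfr1* to *Fgfr4*, *Fgfr3* 33.9% and 28.3% and *Fgfr2* 10.8% and 11.7%. In KO, *Fgfr3* made up 67.6% and 67.4%, *Fgfr1* 20% and 21% and *Fgfr2* 12.1% and 11.5%. The summed level rose from 10.3 and 9.66 RPKM to 77.1 and 76.4 RPKM, and the share of *Fgfr2* overlapped between genotypes. With 2 libraries per genotype an exact permutation test cannot give a two-sided p below 0.333, and these shares are given without a test.

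**Figure D2:**
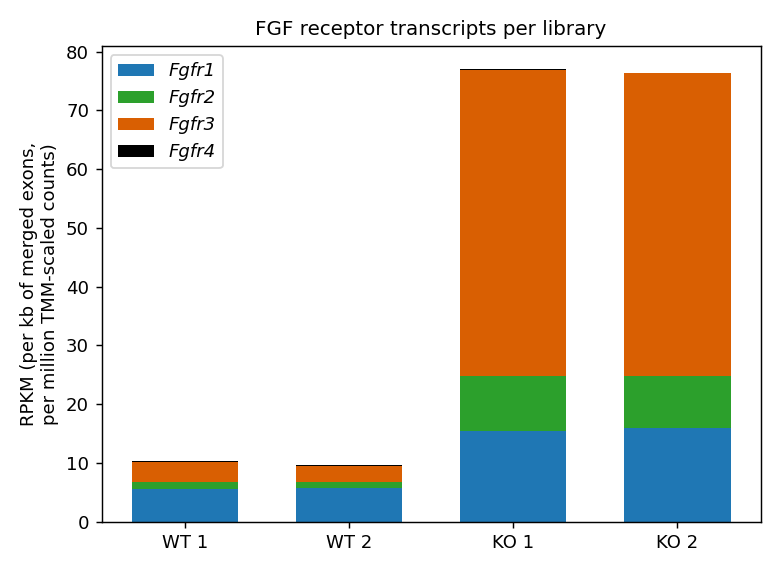
Stacked RPKM (reads per kilobase of merged exons, TMM-scaled) of *Fgfr1*, *Fgfr2*, *Fgfr3* and *Fgfr4* in each library. The WT bars reach 10.3 and 9.66 RPKM with *Fgfr1* as the largest part, and the KO bars 77.1 and 76.4 RPKM with *Fgfr3* as the largest part.

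Markers of other cells moved in the same libraries. Of 9 astrocyte markers, 8 were higher in KO by the same test, and their summed level was 172 to 187 CPM in WT and 2759 to 2905 CPM in KO. Their most abundant members in KO, *Slc1a2*, a glutamate transporter, and *Aldoc*, a glycolytic enzyme, rose by log2 fold changes of 4.26 and 4.32. The smallest rises among the 8 were those of *Sox9* (0.96), which stood above *Aldoc* in WT, and *S100b* (1.4). The defining marker *Gfap* was at 0 counts in both WT libraries and had 149 and 198 counts in KO, and *Aqp4* went from 0 and 4 counts to 591 and 567. Of 6 oligodendrocyte markers 5 were higher, with a summed level of 129 to 152 CPM in WT and 541 to 560 CPM in KO. Of 6 mural cell markers 5 were higher as well (300 to 316 CPM in WT, 639 to 687 CPM in KO), where *Acta2* was at 0 counts in both WT libraries. Most of the mural sum in WT was *Cspg4*, which did not pass, and without it the other 5 summed to 47.8 and 52.7 CPM in WT and 319 and 308 CPM in KO. Radial glia and progenitor markers had 2 of 10 genes higher, *Hes1* and *Slc1a3* (1385 to 1399 CPM in WT, 1977 to 2111 CPM in KO). Most of this rise was *Slc1a3*, a glutamate transporter gene that astrocytes also carry, and without it the other 9 summed to 1329 and 1309 CPM in WT and 1518 and 1431 CPM in KO. Oligodendrocyte precursor markers had 1 of 5 higher (1283 to 1339 CPM in WT, 1631 to 1707 CPM in KO). Of the 6 tested microglial markers 1 was higher (26.6 to 30.4 CPM summed over 7 in WT, 51.5 to 58.4 CPM in KO). The proliferation markers *Mki67* and *Top2a* had log2 fold changes of -0.04 and -0.07. Of 9 genes carried by neurons in general 3 were lower, and the summed level of the 9 was 5752 to 6369 CPM in WT and 4257 to 4325 CPM in KO. Endothelial markers had 0 of 5 tested genes called (edgeR; 1 higher and 2 lower at an unadjusted p under 0.05) and summed to 16.4 to 17.5 CPM in WT and 16.3 to 18.6 CPM in KO. The fibroblast list had 0 of 3 tested genes called (edgeR, with 1 higher at an unadjusted p under 0.05). The choroid plexus list had 1 of 3 tested genes lower, *Ttr* (log2 fold change -5.53, edgeR adjusted p = 1.77e-05). *Ttr* stood at 40.8 and 55.3 CPM in WT and at 0.951 and 1.1 CPM in KO. The whole choroid plexus list summed to 46.4 and 60.55 CPM in WT and 4.16 and 5.95 CPM in KO. The part of these cell types in the receptor changes was not tested, and in sorted pools a larger share of such cells and more RNA per cell cannot be told apart.

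**Figure D3:**
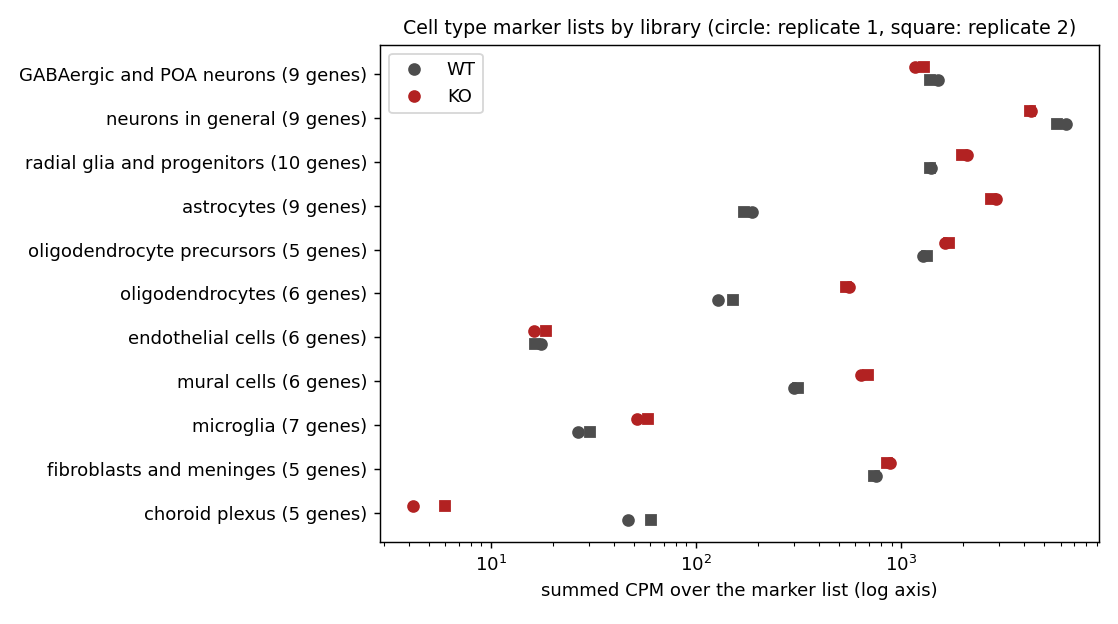
Summed level of each cell type marker list in CPM (log axis) in each library, WT in grey and KO in red, with circles for replicate 1 and squares for replicate 2. The astrocyte list lies at 172 to 187 CPM in WT and 2759 to 2905 CPM in KO, while the endothelial list lies between 16.3 and 18.6 CPM in all libraries. *Cspg4* stands in the precursor and mural lists and *Pdgfra* in the precursor and fibroblast lists.

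*Fgf15* (ENSMUSG00000031073, chromosome 7, 144896531 to 144900953, plus strand) encodes a ligand of midline and progenitor domains of the embryonic brain, and it was the rarest of the 10 genes by counts. It had 35 and 67 counts in WT, against 38 and 41 in KO, or 4.35 and 6.57 CPM against 4.52 CPM in both KO libraries. Both KO values fell within the range spanned by WT. The log2 fold change was -0.28 ± 0.37 (SE, edgeR adjusted p = 0.695) with an interval from -1.12 to 0.56, so that neither a fall to 0.459 nor a rise to 1.48 times the WT level can be told from no change at this depth. The antisense gene *Gm26793* overlaps 24.9% of the exonic bases of *Fgf15* and had 7 and 27 counts in WT, against 0 and 14 in KO, so that, with the strand setting not given, part of the *Fgf15* counts cannot be assigned with certainty.

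Both ETS factors were higher in KO. *Etv4* (ENSMUSG00000017724, chromosome 11, 101769742 to 101785371, minus strand) had 117 and 154 counts in WT, against 392 and 466 in KO, or 14.5 and 15.1 CPM against 46.6 and 51.3 CPM. Its log2 fold change was 1.72 ± 0.17 (SE, edgeR adjusted p = 0.000564), a 3.3-fold rise with an interval from 2.5 to 4.37. *Etv5* (ENSMUSG00000013089, chromosome 16, 22381309 to 22439719, minus strand), the close relative of *Etv4*, stood at 23.8 and 23.2 CPM in WT and at 38.8 and 41.3 CPM in KO. The change of *Etv5* was smaller, with a log2 fold change of 0.77 ± 0.17 (SE, edgeR adjusted p = 0.0281) and a 1.7-fold rise, interval 1.3 to 2.22. Per exon length *Etv4* stood at 0.805 and 0.859 times the level of *Etv5* in WT and at 1.59 and 1.64 times in KO, so that their order turned. *Etv1*, the third gene of this ETS subfamily, had 13.7 and 5.68 CPM in WT and 12.1 and 13.1 CPM in KO and did not pass (log2 fold change 0.4, edgeR adjusted p = 0.592). The call of *Etv5* was lost when either KO library was left out (adjusted p = 0.138 without KO replicate 1 and 0.31 without KO replicate 2), and that of *Etv4* was not lost with any library left out.

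The Sprouty genes encode inhibitors of receptor tyrosine kinase signalling, and 1 of the 3 listed passed the test. *Spry2* (ENSMUSG00000022114, chromosome 14, 105891947 to 105896819, minus strand) had 201 and 309 counts in WT, against 421 and 473 in KO, or 25 and 30.3 CPM against 50.1 and 52.1 CPM. The log2 fold change of *Spry2* was 0.88 ± 0.17 (SE, edgeR adjusted p = 0.0161), a 1.85-fold rise with an interval from 1.41 to 2.42. Over the fits with a library left out, its log2 fold change ranged from 0.75 to 1.02. *Spry4* (ENSMUSG00000024427, chromosome 18, 38586247 to 38601415, minus strand) had 32.2 and 28.7 CPM in WT and 41.7 and 49.7 CPM in KO, without overlap. Its log2 fold change of 0.59 (standard error 0.17, interval 0.19 to 0.99) did not pass over all tested genes (edgeR adjusted p = 0.0872). *Spry4* passed in 4 of 10 other fits, among them the edgeR fit scaled by library size alone (adjusted p = 0.0403). Its log2 fold change ranged from 0.46 to 0.72 over the fits with a library left out. *Spry1* (ENSMUSG00000037211, chromosome 3, 37639947 to 37644598, plus strand) stood at 37.5 and 44.0 CPM in WT and at 41.3 and 46.9 CPM in KO, and the libraries of both genotypes overlapped. Its log2 fold change was 0.11 ± 0.17 (SE, edgeR adjusted p = 0.738), with an interval from 0.827 to 1.41 times the WT level. The antisense gene *Gm42922* overlaps 24.4% of its exonic bases but had at most 2 counts in any library. *Spry3* was at 9.19 and 9.6 CPM in WT and 7.13 and 6.61 CPM in KO (edgeR adjusted p = 0.379). Per exon length, *Spry2* stood at 0.927 and 0.958 times the level of *Spry1* in WT and at 1.69 and 1.55 times in KO.

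*Dusp6* (ENSMUSG00000019960, chromosome 10, 99263231 to 99267489, plus strand), the gene of the ERK phosphatase, had 242 and 318 counts in WT, against 303 and 387 in KO. Its level was 30.0 and 31.2 CPM in WT and 36.0 and 42.6 CPM in KO, and the genotypes did not overlap. The log2 fold change was 0.36 (standard error 0.17, interval -0.03 to 0.76) and did not pass (edgeR adjusted p = 0.253). The interval allows a *Dusp6* level between 0.978 and 1.69 times that of WT.

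**Figure D4:**
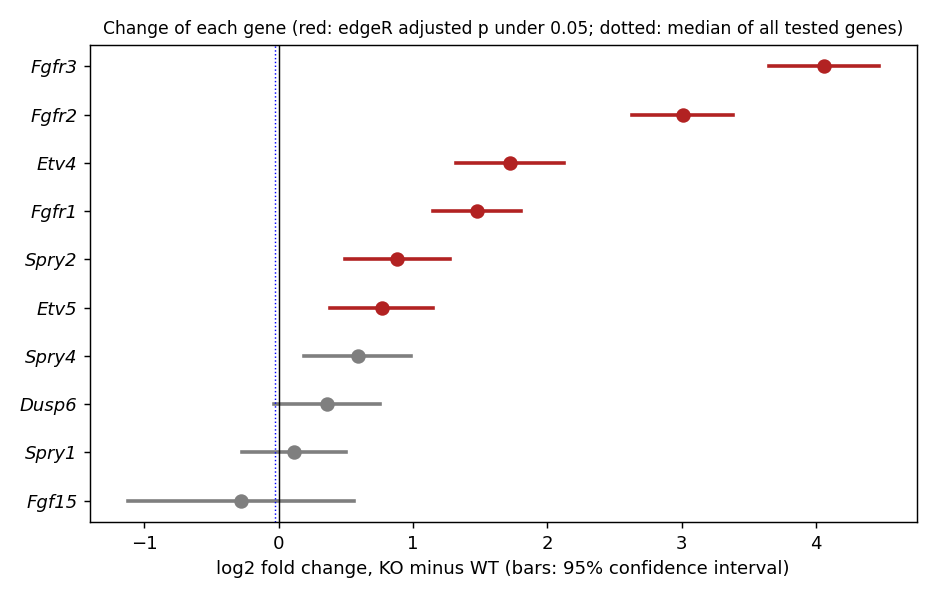
Log2 fold change of each gene (KO minus WT, x axis) with its 95% confidence interval from the edgeR fit, red where the adjusted p was under 0.05, and the median of all tested genes as a dotted line at -0.03. *Fgfr3* (4.06) and *Fgfr2* (3.01) stand apart from the feedback genes, which lie between 0.11 (*Spry1*) and 1.72 (*Etv4*).

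On the RPKM scale, the order of the 10 genes differed between genotypes. In WT the Sprouty genes and *Dusp6* came first, with *Spry1* at 14.0 ± 1.58 RPKM (SD, n = 2), *Spry2* at 13.2 ± 1.8, *Dusp6* at 9.77 ± 0.252 and *Spry4* at 6.4 ± 0.512. They were followed by *Etv5* at 5.73 ± 0.105, *Fgfr1* at 5.65 ± 0.0558, *Etv4* at 4.77 ± 0.129, *Fgfr3* at 3.12 ± 0.541, *Fgf15* at 1.78 ± 0.513 and *Fgfr2* at 1.12 ± 0.0079 RPKM. Neighbours whose libraries overlapped in WT were *Spry1* with *Spry2* and *Etv5* with *Fgfr1*. In KO *Fgfr3* came first at 51.8 ± 0.417 RPKM, above *Spry2* at 24.5 ± 0.692 RPKM. A group of 3 genes with overlapping libraries followed, *Etv4* at 15.8 ± 1.08, *Fgfr1* at 15.7 ± 0.394 and *Spry1* at 15.2 ± 1.38 RPKM. Next came *Dusp6* at 12.6 ± 1.49 and, again overlapping from one neighbour to the next, *Etv5* at 9.76 ± 0.438, *Spry4* at 9.61 ± 1.18 and *Fgfr2* at 9.03 ± 0.394 RPKM. *Fgf15* was last at 1.48 RPKM in both KO libraries. The summed RPKM of the 3 receptors was 0.198 and 0.17 times that of the 6 feedback genes in WT, and 0.927 and 0.831 times in KO.

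RefSeq transcript start regions of genes that passed the test and of a relative that did not are printed (GRCm38.p6), since DNMT1 maintains methylation at CG dinucleotides, which are set in capitals. RefSeq windows of 300 bases, from 250 bases before a transcript start to 50 bases after it, were found for 6 of the 10 genes, 8 windows in all. Each sequence runs 5′ to 3′ on the strand of the gene. The RefSeq start of *Fgfr2* lies 2856542 bases inside the GENCODE span of the gene given above, and is thus not the start of that span, while the other printed starts lie 0 to 50 bases from theirs. The methylation of these windows was not analysed here.
*Fgfr3* (chr5:33721474-33721773, plus strand): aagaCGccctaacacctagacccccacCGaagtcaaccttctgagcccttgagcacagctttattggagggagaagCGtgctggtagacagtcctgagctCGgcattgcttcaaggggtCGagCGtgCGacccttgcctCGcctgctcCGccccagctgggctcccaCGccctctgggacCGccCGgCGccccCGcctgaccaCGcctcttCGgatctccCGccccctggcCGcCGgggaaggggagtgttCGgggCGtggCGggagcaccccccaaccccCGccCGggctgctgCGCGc
*Fgfr2* (chr7:130266759-130267058, minus strand): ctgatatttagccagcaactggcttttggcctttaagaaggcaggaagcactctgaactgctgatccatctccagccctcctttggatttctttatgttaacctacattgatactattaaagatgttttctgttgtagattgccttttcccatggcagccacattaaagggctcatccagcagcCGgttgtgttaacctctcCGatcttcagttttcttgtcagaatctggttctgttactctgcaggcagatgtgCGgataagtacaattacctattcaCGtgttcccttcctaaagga
*Spry2* (chr14:105896770-105897069, minus strand): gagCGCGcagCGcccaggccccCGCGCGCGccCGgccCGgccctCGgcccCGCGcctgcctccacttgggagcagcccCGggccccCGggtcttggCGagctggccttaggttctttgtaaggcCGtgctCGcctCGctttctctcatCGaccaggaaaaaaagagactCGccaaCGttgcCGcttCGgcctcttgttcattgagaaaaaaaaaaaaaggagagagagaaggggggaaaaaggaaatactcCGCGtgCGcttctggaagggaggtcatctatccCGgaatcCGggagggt
*Spry1* (chr3:37639697-37639996, plus strand): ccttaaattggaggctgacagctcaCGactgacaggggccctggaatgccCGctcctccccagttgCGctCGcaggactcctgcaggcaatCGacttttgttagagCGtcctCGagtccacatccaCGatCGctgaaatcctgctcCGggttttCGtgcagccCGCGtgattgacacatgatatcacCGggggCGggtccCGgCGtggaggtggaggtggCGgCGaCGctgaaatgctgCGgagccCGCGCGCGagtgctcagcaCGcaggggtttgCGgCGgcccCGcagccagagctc

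These windows differ in CG content. The *Fgfr3* window holds 26 CG dinucleotides and that of *Fgfr2* 4, against a median of 7 over 32851 RefSeq windows. A second *Fgfr3* window further into the gene holds 30. *Spry2* has 28 and *Spry1* 29, so that the Sprouty gene that passed and the one that did not have nearly the same number. The windows of *Etv5* hold 37 and 19, and that of *Dusp6* 19. The windows were also searched on both strands for the ETS motif CCGGAAGT, for its shorter core CCGGAA, which lies within the former, and for the STAT motif TTCNNNGAA and the CRE motif TGACGTCA. The shorter ETS core was found once, in the *Spry2* window, and it occurs in 14.9% of all windows. The longer ETS motif (3.89% of all windows), the STAT motif (8.3%) and the CRE motif (1.79%) were not found in these 8 windows.

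The other genes of the pathway were taken from a list of 88 genes, of which 73 were tested. Of these 7 were higher in KO and 0 were lower (edgeR; 11 higher and 6 lower at an unadjusted p under 0.05), and their median log2 fold change was -0.12. The 7 make up 9.59% of the 73 genes, a share near the 7.33% of all tested genes that were higher. The 7 genes were a ligand, a decoy receptor, an adhesion protein that binds FGF receptors and 4 heparan sulphate proteoglycans. Lower calls depended on the fit and on single libraries, with 1 gene by DESeq2 and 0 by limma-voom. Without WT replicate 1 there were 14 higher and 8 lower genes, without WT replicate 2 there were 11 and 15, and without KO replicate 2 there were 4 and 1.

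*Fgf1*, a secreted ligand that binds all FGF receptors, had 2 counts in each WT library and 245 and 227 counts in KO, or 29.1 and 25 CPM in KO. The ratio of the summed counts at equal depth was 123, with an exact 95% counting interval from 47.8 to 454 (edgeR adjusted p = 2.28e-05). The ligand list holds 21 genes of the FGF family, and not all of their products are secreted. Of the 21 genes 9 were tested, and the 8 besides *Fgf1* did not pass. *Fgf9* had 7.08 and 4.9 CPM in WT and 4.4 and 5.29 CPM in KO. *Fgf13*, whose product stays inside the cell, had 27.7 and 27.5 CPM in WT and 14.6 and 19.2 CPM in KO (log2 fold change -0.71, edgeR adjusted p = 0.0892). It was called lower in 4 of 10 other fits (adjusted p from 0.0235 to 0.161 over the 10) and when either WT library was left out. The 12 ligands that were not tested had at most 8 counts in any library, and 3 of them had none.

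*Fgfrl1*, a receptor without a kinase domain, had 9.06 and 12.1 CPM in WT and 31.3 and 38.3 CPM in KO (log2 fold change 1.71, edgeR adjusted p = 0.00266). *Flrt1*, a transmembrane protein that associates with FGF receptors, rose by 0.76 on the log2 scale (edgeR adjusted p = 0.0385), and this call was lost without either KO library (adjusted p up to 0.355). Its relatives *Flrt2* and *Flrt3* did not pass, at -0.40 and -0.38 on the log2 scale. Among 19 heparan sulphate genes 4 were higher and 0 lower (edgeR; 4 higher and 3 lower at an unadjusted p under 0.05), against 7.33% higher and 0.57% lower over all tested genes, and 12 of the 19 had a log2 fold change below 0 (median -0.06). The syndecan *Sdc4* had 4 and 10 counts in WT, against 551 and 504 in KO (log2 fold change 6.28, edgeR adjusted p = 1.04e-05), and the glypican *Gpc5* 39 and 24 counts in WT, against 675 and 668 in KO (4.45, adjusted p = 4.96e-05). *Sdc2* and *Gpc6* rose by 1.13 and 1.11 on the log2 scale (edgeR adjusted p = 0.02 and 0.0141), and both calls were lost without KO replicate 2 (adjusted p up to 0.193 and 0.148). The other 15 genes of this list, which include the sulphatases *Sulf1* and *Sulf2* and the sulphotransferases, lay between -0.63 and 0.31 on the log2 scale. The lowest was *Hs6st2* (edgeR adjusted p = 0.0931), which was called lower in 4 of 10 other fits. *Gpc3* (log2 fold change -0.56, edgeR adjusted p = 0.168) was called lower in 1 of 10.

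Of the 22 adaptors and kinases of the RAS-ERK cascade, 0 passed in either direction (edgeR; 3 higher and 1 lower at an unadjusted p under 0.05), and their median log2 fold change was -0.17. *Mapk3*, which encodes the kinase ERK1, had a log2 fold change of -0.13. The adaptor *Shc1* had 5.83 and 6.47 CPM in WT and 11.5 and 13.7 CPM in KO (log2 fold change 1.03, edgeR adjusted p = 0.0645), and it was called higher in 5 of 10 other fits. Of the 18 tested genes among 19 other feedback and ERK output genes, 0 passed in either direction (edgeR; 1 higher and 1 lower at an unadjusted p under 0.05), with a median log2 fold change of -0.02. They include the ERK phosphatase *Dusp4* (169 and 189 CPM in WT, 137 and 156 CPM in KO), the Sprouty relative *Spred1* and the growth-linked targets *Ccnd1* and *Myc*, which had log2 fold changes of 0.00 and 0.03.

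**Figure D5:**
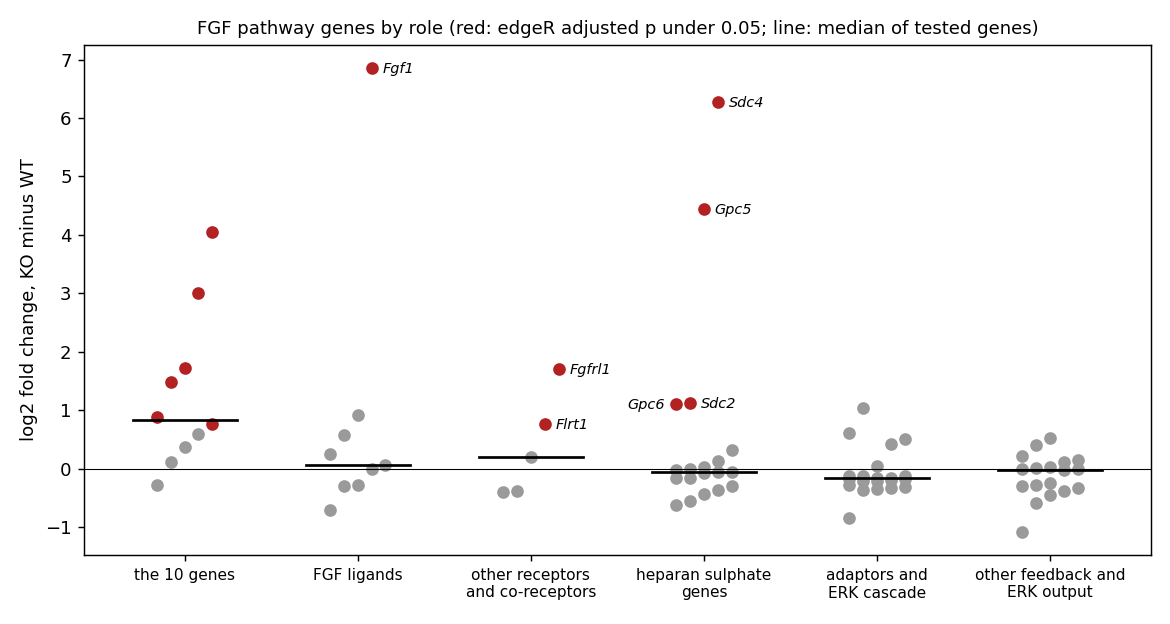
Log2 fold change (KO minus WT, y axis) of each tested gene by role in the FGF pathway, red where the edgeR adjusted p was under 0.05, with a line at the median of each group. The ligand *Fgf1* (6.86), the syndecan *Sdc4* (6.28) and the glypican *Gpc5* (4.45) lie above the receptors, while 0 of the 22 cascade genes and 0 of the 18 other feedback and output genes are red.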

How the data were processed

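RNA of 4 libraries (2 WT, 2 KO) was analysed as raw read counts per Ensembl gene, which the authors deposited without normalization in 1 list per library. Per the labels, the submitters' processing notes name CASAVA 1.8.2, STAR 2.5.2a and featureCounts 1.5.0-p1 and the builds mm10 and GRCm38. The annotation release and the strand setting are not given in the sources used here. GENCODE M21 (GRCm38) supplied symbols, positions and merged exon lengths for 55480 of 55573 identifiers.

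Low genes were removed with filterByExpr, libraries were scaled by TMM, and the genotypes were compared by quasi-likelihood F-tests in edgeR 4.0.16 (limma 3.58.1, R 4.3.3), the model holding genotype alone. Benjamini-Hochberg adjustment ran over all 16832 tested genes, and genes with an adjusted p under 0.05 were called. Standard errors and 95% intervals were derived from the test statistic. RPKM used merged exons. Counting intervals were exact (Clopper-Pearson). Alternatives were DESeq2 1.42.0, limma-voom, other scalings and filters, a block for the replicate number, a correction for exonic length and GC content, other thresholds and each library left out in turn. The last leaves a genotype with 1 library, which is assumed to vary like the others.

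The 10 genes and all lists were chosen with earlier results of these data known. Named are the 10 genes, *Dnmt1*, *Hmx3*, called pathway genes (up to 4 per role and direction) and the most abundant or absent markers. Other genes were named after their values were seen. The procedures were tested on simulated counts. At a simulated log2 change of 1 in either direction edgeR recovered 51% of the changed genes, and at a change of 2 it recovered 97%. All simulated libraries were given the same spread, unlike the real WT and KO libraries. Values of some pathway genes are not reported here.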

Additional observations from a re-analysis of the deposited data

How the results depend on the processing

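The number of the 10 genes called higher in KO was 6 and stayed between 4 and 7 under all alternatives, and 0 were called lower in each. *Fgfr1*, *Fgfr2*, *Fgfr3* and *Etv4* were called in all 10 other fits and with each library left out. *Spry2* and *Etv5* were called in all 10 other fits, but in 2 of the 4 fits with a library left out. *Spry4* was also called with the length and GC correction (adjusted p = 0.0215) or the replicate block (0.0404). With a library left out, the log2 fold change of *Fgf15* ranged from -0.55 to 0.0449 (without WT replicate 2) and that of *Spry1* from -0.0036 (without WT replicate 1) to 0.22, so that their direction was not fixed. Scaling by library size alone moved the median log2 fold change of all tested genes from -0.03 to 0.08.

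Among the 88 other pathway genes, 7 were called higher and 0 lower. The genes called lower were 1 with DESeq2, DESeq2's size factors, library size or the upper quartile, 4 without a filter, with the replicate block or with the length and GC correction, 5 with the block and the correction together, and 3 at an adjusted p under 0.1. Those called higher were 4 at an adjusted p under 0.01. With a library left out, 4 (without KO replicate 2) to 14 (without WT replicate 1) were higher and 0 to 15 (without WT replicate 2) lower.

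Over all genes, 1233 were called higher and 96 lower. The lower calls were 247 with DESeq2, 573 without a filter, 52 with at least 10 counts in every library and 619 with the replicate block (1625 higher). The length and GC correction gave 2132 higher and 873 lower, and with the block 1992 and 744. An adjusted p under 0.01 gave 724 and 16, and under 0.1 318 were lower. With a library left out, 900 (without KO replicate 2) to 2578 (without WT replicate 1) were higher and 51 (without KO replicate 2) to 2180 (without WT replicate 2) lower, and without WT replicate 1 1300 were lower. The cause was not tested. The same-numbered libraries share only a number (correlation of deviations 0.137 across genes), and among the 10 genes the block changed the call of *Spry4* alone. Counts of at most 67 limit *Fgf15*.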
